A study of Mus musculus with 19 samples.

Results

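Ovaries lacking both Dhh and Ihh, called DKO, were compared with ovaries of controls heterozygous for both genes, labelled Ihh_Dhh_dhet. The comparison used the 3 DKO arrays and control arrays 1 to 4, which were chosen by their titles and are 7 of the 19 arrays of the series. The series also holds 4 other control arrays and 4 arrays each of the single Dhh KO and Ihh KO, whose hybridization controls differ from those of the 7. RNA came from whole ovaries of female mice aged 2 months and was hybridized to the Affymetrix Mouse Genome 430 2.0 array. On this array a probe set reports transcript level as a MAS5 signal, a linear intensity. A probe set can match more than 1 transcript, and 932 are annotated to several genes. The deletion was ovary specific per the labels, and the promoter that drives it is not given in the sources used here. The controls carry 1 intact copy of each gene, so they are not wild type. The labels do not say whether each array came from a different animal, so p-values measure the spread between these arrays, part of which may be technical.

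Granulosa cells of growing follicles secrete the Hedgehog proteins that Dhh (Desert) and Ihh (Indian) encode. A ligand binds the receptor Patched on neighbouring cells, which releases Smoothened and lets the Gli transcription factors act. Cells that receive the signal switch on Gli1, Ptch1 and Hhip, so these genes serve as a readout of the pathway. In the ovary the signal is known to reach the theca and stroma, where steroid-making cells and smooth muscle around follicles are found. The comparison asks which genes of the adult ovary differ when both ligands are missing. Array DKO 2 had low signals of Ovgp1, a secreted oviduct glycoprotein, and of Adipoq, an adipocyte hormone, so each change was also read on that array by itself.

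The table covers 45037 probe sets outside the Affymetrix controls, and every array was scaled to a trimmed mean of 500. Median signals ran from 101 to 125.7 in controls and from 107 to 121 in DKO. RNA integrity was read from Gapdh, whose 3' over 5' control signal was 1.75 ± 0.0506 (SD, n = 4) in controls and 1.72 ± 0.0556 (n = 3) in DKO. Differences are given as log2 of the signal plus 7.02, DKO minus control, which understates the change of weak probe sets. Across all probe sets 80 passed a limma adjusted p of 0.05 (0.178% of those tested), 23 higher in DKO (0.0511%) and 57 lower (0.127%). At an unadjusted p under 0.05 there were 4966. The 80 included 72 probe sets with 1 assigned gene, which stood for 60 genes, 19 higher and 41 lower. On all 80 the 3 DKO arrays lay outside the range of the 4 controls, against 6.1% of all probe sets with DKO above and 4.31% with DKO below. The calls were made on these same arrays and favour such separation, so it describes them and adds no support. The number of calls changed with single arrays: it was 5 without control 3, 13 without control 1, 28 without DKO 3, 49 without control 2 and 188 without control 4. No call could change sign in these fits, since on all 80 every DKO array lay outside the control range. The largest unadjusted limma p among them was 7.2e-04, for probe sets chosen by their p in these same data.

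The Hedgehog readout genes fell, and they fell on DKO 2 as on the other DKO arrays. Dhh itself was at 944, 606, 1371 and 1311 in controls 1 to 4 and at 3.85, 4.28 and 14.2 in DKO 1 to 3. All 3 DKO signals lay near the floor of the array, and the log2 difference was -6.20 (SE 0.35, limma adjusted p = 3.7e-04). A second, weaker Dhh probe set differed by -0.58 (adjusted p = 0.53), and where the probes lie relative to the deleted sequence is not given in the sources used here. Ihh was at 200, 180, 139 and 425.5 in controls and at 51.6, 36.3 and 52.7 in DKO. The groups did not overlap, but the difference of -2.06 (SE 0.36) missed the threshold among these 7 arrays (limma adjusted p = 0.070). In a fit of all 19 arrays, which pools the spread of 5 groups, its adjusted p was 0.020. In a whole ovary, fewer cells of a type and less RNA per cell cannot be told apart, here and in all results that follow.

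Gli1, the transcription factor that the signal switches on, was at 93.9, 144, 93.2 and 157 in controls and at 13.3, 4.78 and 3.91 in DKO. It fell by 3.19 (SE 0.33, limma adjusted p = 0.016), and DKO 1, not DKO 2, kept the most signal. Hhip, a membrane protein that captures Hedgehog ligands, was at 123, 150, 145 and 284 in controls and at 16.1, 16.2 and 11.1 in DKO, a fall of 3.02 (SE 0.32, adjusted p = 0.016). A second Hhip probe set was also called (-2.78, adjusted p = 0.034), and the other two differed by -2.91 (0.055) and -1.01 (0.47). Ptch1, the receptor, was at 3763, 4048, 3883 and 3921 in controls and at 2128, 2381 and 2105 in DKO. It fell by 0.82 (SE 0.084, adjusted p = 0.016), and its signals were tight within each group. Its weaker probe sets differed by -0.69 (adjusted p = 0.28) and -0.84 (0.62). Dhh passed in every fit with 1 array left out. Gli1 and Ptch1 both missed the threshold without control 1 (adjusted p = 0.051 each), and without control 3 they gave 0.065 and 0.066. Hhip missed it without control 3 (0.066) and without DKO 3 (0.052).

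**Figure D1:**
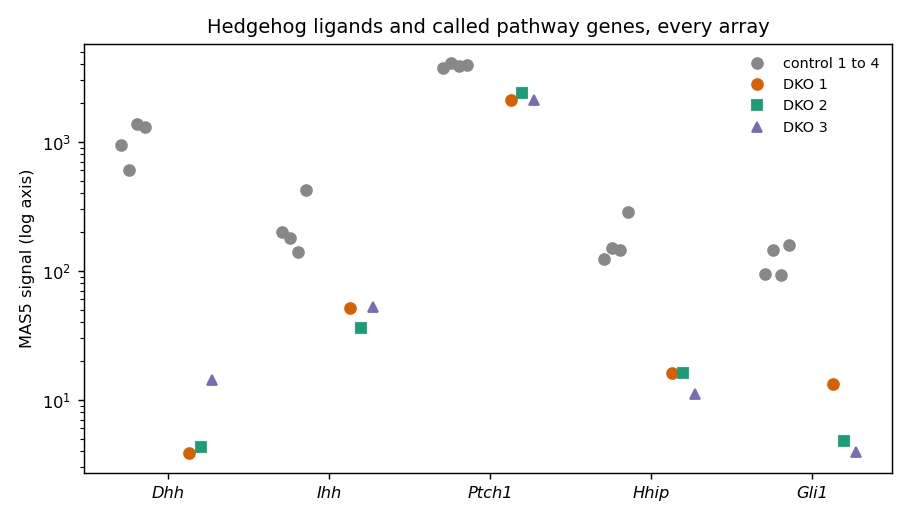
MAS5 signal (log axis) of Dhh, Ihh, Ptch1, Hhip and Gli1 on each of the 7 arrays, 1 point an array. For each gene the 3 DKO arrays lie below all 4 controls, and DKO 2 (squares) lies with DKO 1 and DKO 3.

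The rest of the pathway was not called. Of the 8 genes for ligands and their release only Dhh passed the test, of the 6 measured receptors and co-receptors Ptch1 and Hhip, and of the 10 transducers Gli1. Shh, the third Hedgehog ligand, was at 12.2 to 26.2 in controls and at 16.7 to 42.5 in DKO, a difference of 0.53 (SE 0.33, limma adjusted p = 0.61). Smo, which encodes Smoothened, differed by 0.06 (SE 0.13, 0.91). The co-receptor genes Gas1, Boc and Cdon differed by -0.03, -0.24 and -0.25 (adjusted p = 0.98, 0.60 and 0.87). Gli2 and Gli3, the other Gli factors, differed by -0.04 and 0.29, and their inhibitor Sufu by 0.02 (0.95, 0.60 and 0.98). Disp1, which releases ligand from the cell that makes it, was at 288 to 341 in controls and 401 to 472 in DKO. Its groups did not overlap, and the difference of 0.51 (SE 0.13) had an adjusted p of 0.19. The signs for Shh, Smo, Gas1, Cdon, Gli2 and Sufu turned under at least 1 other choice of arrays or scaling.

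Promoters of the receptor and inhibitor genes that fell together are shown here as the sequences nearest to their start sites, from RefSeq on GRCm38.p6. Ptch1 is read from chr13:63565736-63565985 and Hhip from chr8:80058009-80058258, both on the minus strand, as the 250 bases before the start, 5′ to 3′.
Ptch1: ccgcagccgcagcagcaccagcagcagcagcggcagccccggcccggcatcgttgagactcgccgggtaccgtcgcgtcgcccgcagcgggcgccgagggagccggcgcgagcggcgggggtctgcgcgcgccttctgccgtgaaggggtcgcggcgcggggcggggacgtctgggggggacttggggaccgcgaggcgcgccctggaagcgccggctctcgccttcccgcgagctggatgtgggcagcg
Hhip: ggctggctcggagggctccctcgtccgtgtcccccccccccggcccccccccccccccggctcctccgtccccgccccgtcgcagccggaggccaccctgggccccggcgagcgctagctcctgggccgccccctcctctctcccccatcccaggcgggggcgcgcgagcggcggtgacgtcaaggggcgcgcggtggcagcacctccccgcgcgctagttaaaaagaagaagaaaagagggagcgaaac
Both are rich in G and C, at 78.4% and 76.0% of these 250 bases. The median over all windows, which also hold the 50 bases after the start, was 52.7%. The Gli recognition sequence GACCACCCA was searched on both strands in windows of 300 bases, 250 before to 50 after each start. It was found in 83 of 32851 windows (0.253%). None of the 36 called genes with a window held it, Ptch1 and Hhip included, which says only that these letters are not in these windows. Windows were at hand for 36 of the 60 called genes.

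Transcription factors of the ovarian stroma were among the strongest falls. Osr2, an odd-skipped zinc finger factor, was at 864, 819, 951 and 630 in controls and at 66.5, 65.7 and 56.1 in DKO. It fell by 3.55 (SE 0.17), with the smallest limma adjusted p of all probe sets (2.5e-04), and passed in every fit with 1 array left out. Tbx3, a T-box repressor, was at 1051, 1178, 1817 and 670 in controls and at 178, 123 and 78.2 in DKO, a fall of 3.13 (SE 0.34, 0.016). Its other 4 probe sets were also lower on every DKO array, by 1.48 to 2.62, at adjusted p of 0.055 to 0.24. Nr2f2, the orphan nuclear receptor COUP-TFII of stromal and venous cells, was at 5175 to 5882 in controls and at 3662, 3213 and 2660 in DKO. It fell by 0.78 (SE 0.11, 0.044). Gata6, a zinc finger factor of granulosa and theca cells, rose: it was at 1510, 1485, 1409 and 1448 in controls and at 2533, 2448 and 2585 in DKO (0.78, SE 0.084, 0.016).

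On the list of 13 measured stromal transcription factors, 3 fell and 1 rose. Over the 18193 genes read on their strongest probe set, 0.225% were called lower and 0.077% higher. The list was chosen with earlier results of these data known, and it also holds factors of granulosa cells, such as Gata6 and Wt1. The groups did not overlap for 6 factors below and 3 above the controls, against 4.82% and 7.96% of all genes. Osr1, the paralogue of Osr2, was at 117 to 140 in controls and 48.9 to 54.6 in DKO (-1.24, adjusted p = 0.063). Vgll3, a transcription cofactor, was at 618 to 2043 and 129 to 210 (-2.34, 0.063), and Tcf21 at 1953 to 2706 and 1100 to 1601 (-0.71, 0.13). Wt1, the Wilms tumour factor of granulosa and surface cells, was at 1033 to 1432 in controls and 1942 to 2313 in DKO (0.77, 0.073). Osr1, Vgll3, Tcf21 and Wt1 did not pass and were picked after their values were seen. Tbx3 missed the threshold without control 1 (0.059) and control 3 (0.065), and so did Gata6 (0.053 and 0.066). Nr2f2 passed in only 1 of the 7 fits, that without DKO 1, and its adjusted p reached 0.14 without control 3. It also missed the threshold with arrays centred on their medians, as did Gata6.

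The other large falls held transporters, channels and receptors. Atp2b3, a calcium pump of the plasma membrane, was at 361, 610, 817 and 307 in controls and at 7.71, 10.1 and 23.3 in DKO. It fell by 4.64 (SE 0.39, limma adjusted p = 0.0055), second only to Dhh among called genes with a symbol of their own. Lamc3, a laminin chain of basement membranes, was at 142, 252, 327 and 239 against 26.7, 22.1 and 17.9, a fall of 3.03 (SE 0.30, 0.016). It was the only called gene of 19 measured basement membrane genes, whose median difference was 0.01. Sorcs2, a sortilin-type sorting receptor, was at 549, 1009, 864 and 998 against 151, 140 and 179 (-2.36, 0.011). Pkdcc, a secreted tyrosine kinase, was at 2514 to 4583 in controls and at 956, 772 and 423 in DKO (-2.22, 0.029). In each of these genes DKO 2 lay within the span of DKO 1 and DKO 3 or below both.

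The cation exporter gene Slc47a1 was at 99.3 to 248 in controls and at 37.4, 17.7 and 14.2 in DKO (-2.55, limma adjusted p = 0.042). The leak channels Kcnk3, for potassium, and Nalcn, for sodium, fell by 2.19 (0.039) and 2.11 (0.049). Kcnk3 was at 802 to 2316 in controls and at 232, 274 and 311 in DKO. Nalcn was at 58.4 to 74.9 and at 17.7, 4.30 and 10.4. The remaining large falls were Bpifb5 (-2.92, 0.050), Klhdc8a (-2.51, 0.034) and Palm2 (-2.37, 0.034). Among the 15 largest falls, clone names left out, only Dhh, Osr2 and Atp2b3 passed without control 3, where limma adjusted p reached 0.15. Of the 15, 6 passed without control 1, 8 without DKO 2, 8 without DKO 3, 10 without control 2, 13 without DKO 1 and 13 without control 4.

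**Figure D2:**
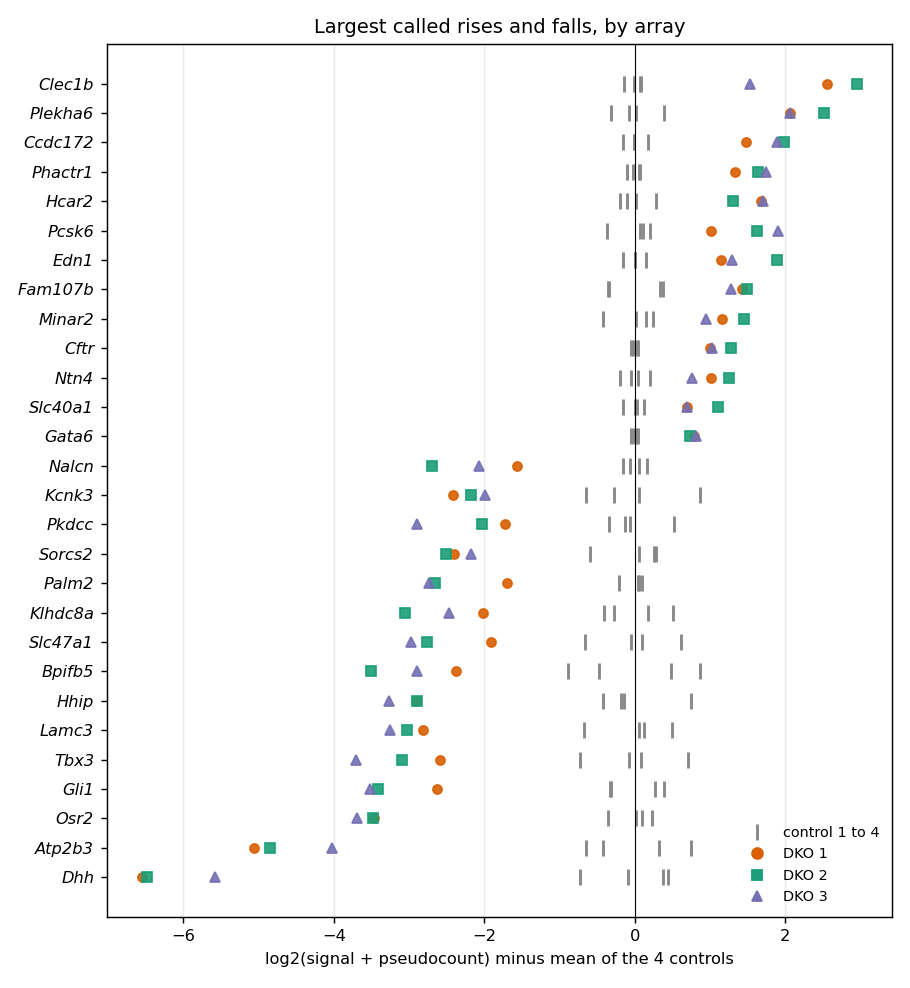
Log2 difference of each array from the mean of the 4 controls for 13 called rises and the 15 largest called falls. Genes are read on their strongest probe set, with clone names left out. Ticks are controls and coloured symbols DKO arrays, and on each gene the 3 DKO symbols lie outside the 4 ticks, DKO 2 (squares) included.

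The other 24 called falls on a gene's strongest probe set were chosen after their values were seen. Nhsl2 was at 1026 to 1321 in controls and at 343, 262 and 287 in DKO (-1.96, SE 0.14, limma adjusted p = 0.0021), and all of its 3 probe sets were called. It and a clone-named transcript, 1110064A23Rik (-3.60, 0.0027), passed in every fit with 1 array left out. Adcy7, an adenylate cyclase, and C2, a complement component, were each called on all 3 of their probe sets (-1.46 and -1.44, both 0.016). Enzymes among these falls were Ephx1, a microsomal epoxide hydrolase (-1.96, 0.029), and the aldehyde dehydrogenases Aldh1b1 (-1.69, 0.026) and Aldh1a1 (-0.78, 0.029), which makes retinoic acid. Carriers and regulators of ion pumps were Slc7a8, an amino acid transporter (-2.09, 0.030), Folr1, a folate receptor (-1.32, 0.026), and Fxyd1, phospholemman (-1.58, 0.026). Matrix genes were Aebp1, which binds collagen (-1.26, 0.016), Mfap5, of microfibrils (-1.30, 0.038), and Egflam (-1.38, 0.037). Acvr1, a receptor for bone morphogenetic proteins, was at 948 to 1102 in controls and 478 to 612 in DKO (-0.92, 0.029). The zinc finger factors Tshz3 and Klf9 fell by 1.06 (0.016) and 0.72 (0.018). The rest were Cdk18, Smpx, Fam169a, Iqgap2, Rerg, Rftn2, Pvt1 and Tst, at -1.89 to -0.80. Of these 24 and AA467197, a rise, 2 passed without control 3, 3 without control 1, 5 without DKO 3, 11 without DKO 2, 15 without control 2, 18 without DKO 1 and 24 without control 4. In these fits adjusted p reached 0.13.

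Rises were fewer, with a median of 1.51 over called probe sets against -1.69 for falls. Clec1b, a lectin receptor of platelets and myeloid cells, was at 86.1, 80.8, 85.4 and 72.4 in controls and at 510, 674 and 247 in DKO, a rise of 2.34 (SE 0.31, limma adjusted p = 0.030). Plekha6 was at 40.2 to 69.7 against 240, 328 and 238 (2.22, 0.016). Pcsk6, a convertase that cleaves secreted precursors, was at 493, 691, 736 and 672 against 1298, 2000 and 2411 (1.51, 0.040). The DKO arrays with the highest Clec1b and Plekha6 signal were both DKO 2. Edn1, the vasoconstrictor endothelin, was at 117, 131, 131 and 146 in controls and at 299, 507 and 333 in DKO (1.45, 0.042). Phactr1, an actin and phosphatase regulator, was at 104 to 118 against 292, 364 and 391 (1.57, 0.016).

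Cftr, the chloride channel of epithelia, was at 165, 176, 174 and 168 in controls and at 349, 426 and 356 in DKO (1.10, limma adjusted p = 0.034). Ntn4, a netrin of basement membranes, was at 1254 to 1644 against 2890, 3414 and 2439 (1.01, 0.034), and Slc40a1, the iron exporter ferroportin, at 1310 to 1605 against 2380, 3167 and 2381 (0.83, 0.050). For Cftr, Ntn4 and Slc40a1 the controls were tight and DKO 2 was the highest array. Fam107b and Minar2 rose by 1.40 (0.042) and 1.19 (0.050). Ccdc172 and the hydroxycarboxylic acid receptor Hcar2 rose by 1.78 (0.037) and 1.56 (0.048), but their control signals, 3.45 to 6.23 and 0.836 to 4.01, lay under the constant added before taking logs. None of these rises, 13 with Gata6, passed without control 1 (limma adjusted p = 0.053 to 0.11) or control 3 (0.066 to 0.15). Of them only Gata6 passed without DKO 2 (0.039). Of the 13, 3 passed without control 2, 3 without DKO 3, 6 without DKO 1 and 11 without control 4. Edn1, Minar2, Cftr, Ntn4, Slc40a1 and Gata6 also missed the threshold with arrays centred on their medians.

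A further 6 genes called higher were chosen after their values were seen. AA467197 was at 14.4 to 20.7 in controls and 93.0 to 137 in DKO (2.20, limma adjusted p = 0.023). Eya4, Snap25, Shisa9, Atp1b1 and Ddr1 were called only on a weaker probe set. Eya4, a transcription coactivator, was called on 2 of 4 probe sets, at 2.99 (0.040) and 2.72 (0.037), and its strongest probe set differed by 2.70 (0.078). Ddr1, a collagen receptor, was called on 1 of 8 probe sets (1.15, 0.048), and its strongest differed by 0.72 (0.080). Atp1b1, a sodium pump subunit, was called on 1 of 5 (0.78, 0.042). Of the 60 called genes, 35 had several single-gene probe sets, and on all 35 these shared 1 sign. More than 1 probe set was called for 9 genes.

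Every called change held on DKO 2. A change was taken to hold when DKO 2 lay outside the control range on the side of the change, with at least 0.5 times the mean difference of DKO 1 and DKO 3. All 80 called probe sets met this, but DKO 2 took part in the calls. The ratio of the DKO 2 difference to that of DKO 1 and DKO 3 had a median of 1.02 (0.619 to 1.63), 1.18 for rises and 0.990 for falls. DKO 1 had the smallest of the 3 differences in 44 of the 80, DKO 2 in 20 and DKO 3 in 16.

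The calls were therefore repeated without DKO 2, which was then read as an array that the fit had not used, with the controls shared. That fit called 71 probe sets (0.158%), 28 lower and 43 higher. All 28 falls had DKO 2 outside the control range on the same side, and 26 of the 28 were also called with all 7 arrays. Of the 43 rises 17 had DKO 2 outside on the same side, and 2 were also called with all 7. Over all probe sets DKO 2 lay outside the control range on the side of DKO 1 and DKO 3 in 33.6%. Read by gene, 21 of 22 falls held on DKO 2 and 2 of 24 rises, Gata6 and Cdh1. For comparison, without DKO 1 the fit called 113 probe sets (0.251%) and DKO 1 lay outside in 101 of them (28.7% of all probe sets), and without DKO 3 it called 28 (0.0622%) with DKO 3 outside in 27 (32.1%).

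The falls that held in this reading included the pathway genes. On DKO 2 the signal was 4.28 for Dhh, 4.78 for Gli1, 16.2 for Hhip and 2381 for Ptch1, each below all 4 controls. Without DKO 2 their log2 differences were -6.06, -3.08, -3.08 and -0.88 (limma adjusted p = 0.0028, 0.040, 0.038 and 0.020). Osr2, Atp2b3, Tbx3, Lamc3, Sorcs2 and Nhsl2 were called there as well, and so were Adcy7, C2, Acvr1, Aebp1, Mfap5 and Tshz3. The fall that did not hold was Pde5a, which breaks down cyclic GMP in smooth muscle. It was at 749 to 1123 in controls and at 325, 533 and 228 in DKO, so DKO 2 lay below the controls by less than 0.5 times the difference of the other DKO arrays. Cdh1, the epithelial cadherin, was at 160 to 276 in controls and at 787, 468 and 1184 in DKO (without DKO 2, 2.21, 0.034). With all 7 arrays it had an adjusted p of 0.059.

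**Figure D3:**
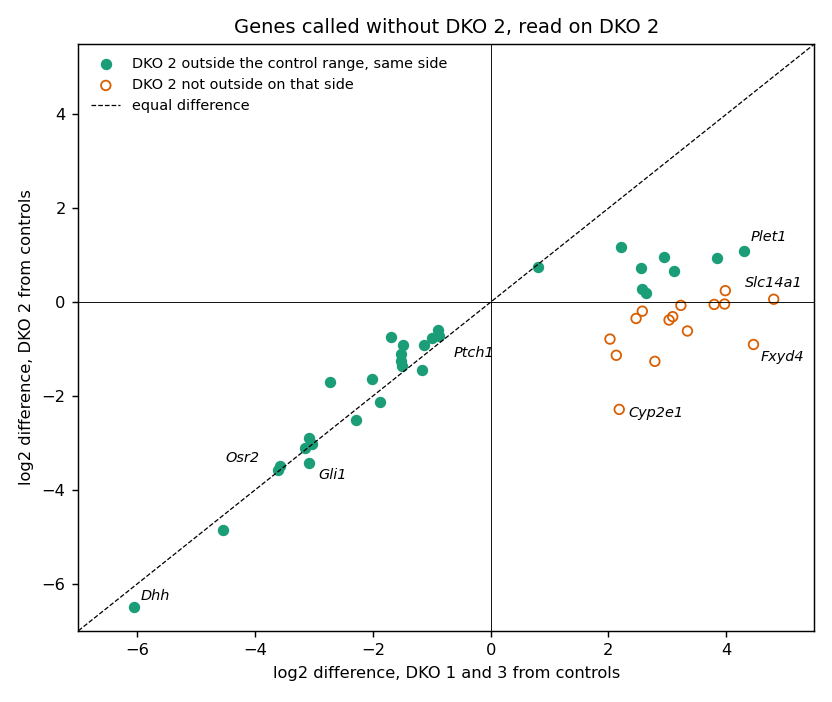
Each point is a gene called without DKO 2, with its log2 difference on DKO 1 and DKO 3 (x axis) and on DKO 2 (y axis) from the control mean. All 22 falls have DKO 2 below the controls, though Pde5a (-0.74 on DKO 2 against -1.69) and some others lie off the line of equal difference. Of the 24 rises 15 are open circles, with DKO 2 not above the control range and on some, such as Fxyd4, below it.

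The rises seen on DKO 1 and DKO 3 and not on DKO 2 were large. Slc14a1, a urea transporter, was at 61.1, 29.9, 27.4 and 14.6 in controls and at 762, 31.6 and 1390 in DKO. DKO 2 lay inside the control range, and the rise was called without DKO 2 (4.81, limma adjusted p = 0.016) and not with it (3.23, 0.28). Fxyd4, a sodium pump regulator, was at 18.2 to 37.3 in controls and at 727, 9.80 and 648 in DKO, with DKO 2 below all controls. Rsph3a, a radial spoke protein of cilia, was at 107 to 154 and at 2144, 134 and 2401, and S100g, a calcium-binding protein, at 6.16 to 44.0 and at 569, 34.5 and 529. For these 3 genes the rise without DKO 2 was 4.46 (0.0043), 3.97 (0.0010) and 3.99 (0.050). Plet1 and Wfdc2, both made by oviduct epithelium, showed a smaller difference on DKO 2. Plet1 was at 78.5 to 205 in controls and at 1852, 242 and 2825 in DKO, and Wfdc2 at 58.9 to 82.5 and at 699, 139 and 1691. Their rise was 4.30 (0.011) and 3.84 (0.013) without DKO 2, and 3.23 (0.13) and 2.87 (0.14) with it.

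A further 3 genes called higher without DKO 2 are named after their values were seen. Scd1, a fatty acid desaturase, was at 1384 to 2230 in controls and at 5664, 764 and 9692 in DKO. Cyp2e1 was at 191 to 295 and at 1424, 39.96 and 749, and Hp, haptoglobin, at 88.7 to 138 and at 495, 57.0 and 397. For all 3, DKO 2 lay below the controls. Ovgp1 and Adipoq themselves were not called with 7 arrays (3.79, limma adjusted p = 0.37, and 1.84, 0.65). Ovgp1 was at 408.7, 26.0, 40.4 and 38.2 in controls and at 3730, 53.6 and 4679 in DKO. Adipoq was at 170, 30.1, 160 and 329 and at 1247, 34.9 and 2301, so on both genes DKO 2 was inside the control range.

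Markers of the oviduct, cilia and fat were set beside these values as a description, since DKO 2 had been singled out by Ovgp1 and Adipoq and the lists hold these genes. Ovgp1 and Adipoq were therefore left out of their lists, a choice made after seeing the data. By list median the oviduct epithelium markers lay above the control mean on all 3 DKO arrays, and least on DKO 2. Their 8 remaining genes had a median difference of 1.47, with 1.52, 0.93 and 2.48 on DKO 1 to 3, and 6 of the 8 did not overlap, against 7.96% of all genes above the controls. Epcam, an epithelial adhesion protein, was at 402 to 772 in controls and at 1029, 1111 and 1789 in DKO (1.31, limma adjusted p = 0.090). On DKO 2, Pax8 was at 1.80, below the controls (15.4 to 33.4), and Ehf at 263, within them (125 to 274). The summed oviduct signal was 846 to 1291 in controls and 4525, 1968 and 8289 in DKO. Plet1 and Wfdc2, which were named because their rise did not hold on DKO 2, carry much of it. Without them the sums were 695 to 1131 and 1974, 1586 and 3772. The medians of the 6 genes then left were 1.29, 0.68 and 1.92 on DKO 1 to 3, and 4 of the 6 did not overlap. No oviduct gene passed the test with 7 arrays, Ovgp1 included. For 9 measured genes of motile cilia the medians were 0.61, -0.04 and 2.59 on DKO 1 to 3, and the sums were 811 to 1349 in controls and 1674, 869 and 7073 in DKO. The cilia factor Foxj1 was at 64.4, 2.54 and 667 in DKO. The 7 remaining adipocyte genes had medians of 2.13, -0.80 and 2.62 on the 3 arrays, and summed signals of 1581 to 5579 in controls and 12711, 1868 and 16263 in DKO. DKO 2 thus lay inside the control range of sums for cilia and adipocyte genes and above it for oviduct genes. Of its oviduct sum of 1586 without Plet1 and Wfdc2, Epcam alone gave 1111, while Pax8 and Ehf did not lie above the controls. What part RNA of such cells has in the rises of DKO 1 and DKO 3 was not tested.

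**Figure D4:**
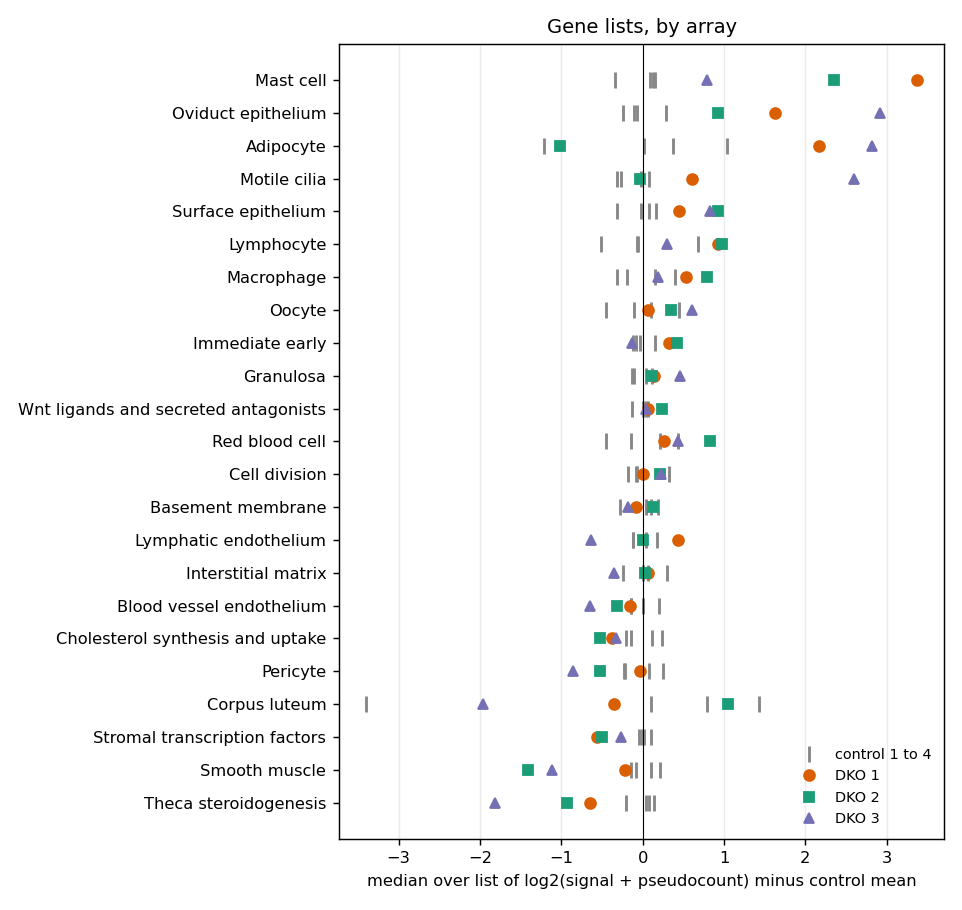
Median over each gene list of the log2 difference of an array from the control mean, with ticks for the 4 controls and coloured symbols for DKO 1 to 3 (Ovgp1 and Adipoq are kept in their lists here). The adipocyte and motile cilia medians of DKO 2 (squares) lie within the control ticks, and the theca, smooth muscle and stromal factor medians of all 3 DKO arrays lie to the left of them.

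Theca steroid genes were lower in DKO, though none passed the test. All 7 measured genes had lower means, 3 with no overlap (4.82% of all genes lay below all controls). Fdxr, Lhcgr and Insl3, also on the list, had no single-gene probe set. The median was -1.21, with -0.65, -0.93 and -1.82 on DKO 1 to 3, -1.34 without DKO 2 and -0.79 without DKO 3. Star, which moves cholesterol into mitochondria, was at 4243, 6031, 7260 and 5264 in controls and at 2289, 2738 and 666 in DKO (-1.79, SE 0.42, limma adjusted p = 0.15). Scarb1, a lipoprotein receptor, was at 3075 to 5197 and at 2420, 2275 and 1248 (-1.21, 0.11), and Fdx1, an electron donor, at 9300 to 13639 and at 7996, 6223 and 5503 (-0.85, 0.082). For these genes DKO and control arrays did not overlap. Cyp17a1, the androgen enzyme of theca cells, was at 8766, 543, 74.1 and 5918 in controls, so its controls spanned the DKO signals of 565, 303 and 76.8. Cyp11a1 overlapped as well, at 5545 to 11658 in controls and at 6016, 4928 and 1055 in DKO (-1.58, 0.32). In the fit of all 19 arrays, which called 1.67% of all genes, 2 of the 7 were lower. Corpus luteum markers moved apart among the controls, with list medians from -3.40 in control 4 to 1.44 in control 2, and at -0.35, 1.05 and -1.97 in DKO. Their part in the theca values was not tested. All 12 measured genes of cholesterol synthesis and uptake had lower means in DKO (median -0.41), 4 with no overlap, against 4.82% of all genes, and none called.

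Smooth muscle genes were lower on DKO 2 and DKO 3 more than on DKO 1. Of 13 measured genes 12 had lower means and 7 did not overlap between groups, against 4.82% of all genes below the controls, with none called among 7 arrays and 6 called lower in the fit of all 19. The list median was -0.90, with -0.22, -1.41 and -1.12 on DKO 1 to 3, and -0.59 without DKO 2. Myh11, smooth muscle myosin, was at 1784, 3018, 2881 and 2299 in controls and at 1221, 236 and 828 in DKO (-1.96, SE 0.47, limma adjusted p = 0.15). Actg2, an enteric actin, was at 1144 to 1767 and at 969, 109 and 219 (-2.25, 0.18). Cnn1, calponin, was at 461 to 549 and at 435, 14.4 and 248 (-1.90, 0.45). Lmod1, leiomodin, was at 277 to 337 and at 149, 45.3 and 69.5 (-1.91, 0.068), and Acta2, smooth muscle actin, at 7205 to 9186 and at 6022, 3229 and 3921 (-0.90, 0.11). In all 5 genes DKO 1 was the DKO array nearest to the controls, but they were picked after their values were seen. Other members differed: Des was at 152 to 198 in controls and at 210, 45.9 and 128 in DKO, so DKO 1 lay above the controls. Cald1 differed by only -0.10. With DKO 2 as the only DKO array, a comparison added after seeing the data, 6 probe sets were called, all lower, those of Cnn1, Actg2, Myh11, Myl9, Dhh and Osr2. That fit takes the spread of DKO 2 from the controls.

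Mast cell genes had a list median of 2.04, with 3.37, 2.36 and 0.79 on DKO 1 to 3, and of 1.21 without DKO 1. Of 10 genes 9 had higher means, 4 did not overlap, against 7.96% of all genes above the controls, and none was called. Cma1, a chymase, was at 36.3 to 81.8 in controls and at 1429, 530 and 144 in DKO (2.88, SE 0.63, limma adjusted p = 0.13). Tpsb2, a tryptase, was at 33.8 to 58.7 and at 862, 379 and 107 (2.76, 0.11). DKO 2 lay between the other DKO arrays for both genes, and without it the list median was 1.90. Surface epithelium genes had a median of 0.93, with 0.45, 0.92 and 0.83 on the 3 arrays, and 6 of 11 did not overlap above the controls (7.96% of all genes). Krt18, a keratin, was at 507 to 870 in controls and at 1619, 1495 and 2649 in DKO (1.39, 0.063). Of the blood vessel endothelium genes 9 of 11 had lower means (median -0.37, or -0.24 without DKO 3), 5 with no overlap against 4.82% of all genes, such as Emcn at 907 to 1262 and at 634, 539 and 377 (-0.98, 0.092). Without DKO 2 the medians of the surface epithelium and endothelium lists were 0.80 and -0.40.

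In the lists of other ovarian cell types no gene was called. The median of 12 granulosa genes was 0.19, and summed signals of 43596 to 53480 in controls and 52681, 46871 and 61012 in DKO show the ovary's follicle cells on every array. The median of 12 oocyte genes was 0.35, with DKO 1 and DKO 2 inside the range of control medians, -0.45 to 0.45. Interstitial matrix genes had a median of -0.08 over 21 measured genes, and 11 cell division genes of 0.13, with no called member in either list. Macrophage genes had a median of 0.52 over 12 genes, also with none called. Wnt5a, a Wnt ligand of stroma, was at 1649 to 2175 in controls and at 1136, 891 and 392 in DKO (-1.36, limma adjusted p = 0.13). Frzb, a secreted Wnt antagonist, was at 109 to 142 and at 944, 794 and 190 (2.00, 0.15). Neither passed, and the 20 Wnt ligands and antagonists had a median of 0.16 with none called.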

How the data were processed

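Per the labels' protocols, PicoPure total RNA was amplified (WT-Ovation Pico) and labelled with biotin. The values deposited by the authors are linear intensities (signals), MAS5 per the submitters' processing notes, version not given in the sources used here, scaled to a mean of 500 per array with 2% trimmed from either tail. The values were used as deposited, as log2(signal + 7.02), the 10th percentile of all signals. Array number, 3 and 4 a group, limits the precision.

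Differences were tested with limma 3.58.1 in R 4.3.3 (lmFit, eBayes with an intensity trend, two-sided, no filter), with Benjamini-Hochberg adjustment over 45037 probe sets (64 Affymetrix controls left out) and a threshold of 0.05. The fit was tested on simulated data. One gene was annotated to 34945 probe sets, several to 932 and none to 9160; 34741 matched RefSeq (GRCm38.p6, names only). Lists were read on each gene's single-gene probe set of highest mean (18193 genes) and described, with no test.

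Named genes were Dhh, Ihh and the Hedgehog lists, the 15 largest rises and falls among called genes that held on DKO 2, up to 6 each way among calls that did not, up to 4 called members of each list, Ovgp1 and Adipoq. Since no call with 7 arrays failed on DKO 2, those 6 were taken from the fit without DKO 2. Clone names were skipped and genes were read on their strongest probe set, which left 13 rises. Members and lists were chosen with earlier results of these data known. Uncalled list members given as examples were picked after their values were seen. Alternatives covered scaling, pseudocount, filter, 1 probe set a gene, arrays and groups fitted, moderation, weights and the replicate block. Figures were drawn in Python 3.11.15 with pandas 2.3.3, numpy 2.4.6 and matplotlib 3.10.9.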

Additional observations from a re-analysis of the deposited data

Results flagged for a closer look

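Among the 122 named genes, 11 had 1 control array standing apart from the other 3 by Dixon's criterion, a test that flags about 1 group in 20 by chance. Control 1 stood apart with a signal of 307 for Hhat, 408.7 for Ovgp1, 509.5 for Rftn2 and 44.5 for Foxj1. Control 2 stood apart with 914 for Mfap5 and 505 for Pvt1, and control 3 with 1262 for Emcn and 1129 for Cldn5. Control 4 stood apart with 6.16 for S100g, 107 for Rsph3a and 5545 for Cyp11a1. Of these genes, Rftn2, Mfap5 and Pvt1 were called lower in DKO. Groups of 3 arrays were not examined in this way.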

How the results depend on the processing

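The count of called probe sets was 80 (23 higher, 57 lower, 80 holding on DKO 2), and no called probe set changed sign under any setting tried. Where arrays were only left out, the sign was fixed in advance, since the groups did not overlap on any of the 80. In each case below where a count moved, the cause was not tested. A fit of all 19 arrays in 5 groups called 496 (253 higher, 243 lower, 462 holding). The same fit with a correlation shared by controls matched across hybridization sets called 568 (280, 288, 531), and a fit with all 8 controls 452 (189, 263, 431). The matching was by array number only, which no label gives. The shared correlation was 0.50, and whether matched controls share a source is not known. The fits without that correlation took all 8 controls as separate. Those sets share 72, 75 and 70 of the 80. Without the intensity trend there were 17 calls (5, 12, 17), with array weights 151 (50, 101, 151), and with DKO 2 as the only DKO array 6 (0, 6, 6), the last chosen after seeing the data. Calls higher numbered 11 with a pseudocount at the 25th percentile (29.4), 14 with a filter at the 60th percentile and 39 with robust moderation, and calls lower 86 with arrays centred on their medians. Quantile normalization gave 92 calls and median centring 107, with 76 and 61 of the 80 among them. Leaving out 1 array gave 5 to 188 calls, 0 to 93 higher, 5 to 95 lower and 5 to 171 holding on DKO 2. The main fit did not pair arrays by number, and whether the numbers pair the groups is not known. Same-numbered control and DKO arrays had deviations correlated at 0.079, 0.061 and 0.063 across probe sets, each the highest for its number. Pairs with unlike numbers ran from -0.060 to 0.031. A replicate block gave 296 calls (151 higher, 145 lower, 262 holding) and kept 64 of the 80.

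Genes that turned sign were not called with all 7 arrays. With all 8 controls these were Shh (-0.31), Scube1 (0.020), Smo (-0.11), Cdon (0.054), Gas1 (0.016), Gli2 (0.099), Sufu (-0.013) and Evc (0.088). With DKO 2 alone they were Scube1 (0.021), Scube2 (0.42), Gas1 (0.019), Gli2 (0.061), Stk36 (-0.36), Evc (0.047), Ovgp1 (-0.28), Adipoq (-1.73), Fxyd4 (-0.90), Rsph3a (-0.040), Foxj1 (-0.53), Dynlrb2 (-0.19), Fabp4 (-0.80) and Pax8 (-1.63). Sufu also turned with quantile normalization (-0.022) and median centring (-0.0064), and Stk36 with array weights (-0.035). With 1 array left out the ranges of the genes that turned were Scube1 -0.33 to 0.162, Scube2 -0.305 to 0.125, Smo -0.0245 to 0.148, Cdon -0.677 to 0.0191, Gas1 -0.235 to 0.15, Gli2 -0.147 to 0.0935, Sufu -0.0857 to 0.104 and Stk36 -0.237 to 0.235. Signals near the added constant, such as those of Hcar2, Ccdc172 and Shh, are limited by background.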
